A study of Mus musculus with 28 samples.

Results

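Transcript levels of 8 genes of cholesterol synthesis and its control were described in the CA1 field of the mouse hippocampus. They were Srebf2, Insig1, Hmgcs1, Idi1, Fdft1, Sqle, Sc5d and Dhcr7, chosen by symbol from the sterol pathway out of the 48709 genes of the count files, and all 8 passed the filter on low counts. None of the 8 encodes a receptor or a transporter, so genes of cholesterol uptake were taken from a separate list of the pathway. RNA was sequenced from 28 dissected CA1 libraries of mice aged 3 months. There were 9 libraries from CamkdeltaC transgenic mice that drank water with vorinostat, an inhibitor of histone deacetylases, 9 from transgenic mice that drank vehicle, and 10 from wildtype littermates that drank vehicle. Treatment started at 2 months of age and lasted 4 weeks. As background, the transgene makes an isoform of a calcium-dependent kinase in heart muscle, and such mice develop heart failure. Per the labels males and females were included, and which mouse was which is not given. Every vorinostat library is from a transgenic mouse, and the drug on its own, without the transgene, was not analysed here.

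Cells make cholesterol from acetyl-CoA through mevalonate, the isoprenoid units, squalene and lanosterol. SREBP2, the product of Srebf2, is a transcription factor held in the membrane of the endoplasmic reticulum. When membrane sterol is low, its escort SCAP carries it to the Golgi, where proteases release the active part, and this part switches on genes of synthesis and of lipoprotein uptake. When sterol is high, INSIG proteins hold SCAP back. Brain cholesterol is made within the brain, since plasma lipoproteins do not cross the blood-brain barrier, and much of it is made by glia.

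The promoters of Srebf2, Hmgcs1 and Insig1 are shown because these genes stand for the factor, one of its target enzymes and its brake. The sequences are from RefSeq on GRCm38.p6, plus strand, 5′ to 3′, and end before the first annotated exon. Capitals mark 3 motifs searched on both strands: TCACNCCA, a form of the sterol regulatory element that SREBP binds, CCAAT, the box bound by NF-Y, and CACGTG, an E-box. No matches overlapped. The Hmgcs1 stretch is chr13:119690101-119690350, the Srebf2 stretch is chr15:82147019-82147180 and the Insig1 stretch is chr5:28071162-28071362.
Hmgcs1: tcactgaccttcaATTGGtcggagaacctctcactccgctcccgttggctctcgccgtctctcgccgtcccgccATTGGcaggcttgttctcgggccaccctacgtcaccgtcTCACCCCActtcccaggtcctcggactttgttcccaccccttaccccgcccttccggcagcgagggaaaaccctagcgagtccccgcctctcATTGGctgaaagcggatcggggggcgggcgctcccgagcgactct
Srebf2: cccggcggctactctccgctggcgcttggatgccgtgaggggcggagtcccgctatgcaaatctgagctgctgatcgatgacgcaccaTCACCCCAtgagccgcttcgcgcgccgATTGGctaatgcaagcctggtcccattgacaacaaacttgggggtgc
Insig1: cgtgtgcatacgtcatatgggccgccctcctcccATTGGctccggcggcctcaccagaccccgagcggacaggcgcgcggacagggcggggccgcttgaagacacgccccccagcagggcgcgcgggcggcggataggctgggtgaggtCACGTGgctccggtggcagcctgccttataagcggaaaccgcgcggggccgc
In the 250 bases before the RefSeq start site, the promoter of Hmgcs1 held 1 TCACNCCA and 3 CCAAT matches, and that of Srebf2 held 1 of each. The promoter of Insig1 held 1 CCAAT and 1 CACGTG match. Of the 8 members, 6 were in the promoter table. The promoters of Sc5d, Idi1 and Dhcr7, the last at each of its listed start sites, held 0 TCACNCCA matches. Sc5d held 1 CCAAT and 1 CACGTG match, and Idi1 held 2 CCAAT and 0 CACGTG matches. At its start sites Dhcr7 held 0, 0 and 2 CCAAT and 0, 1 and 0 CACGTG matches. Of 32536 promoters searched over the same length, 3.65% held TCACNCCA, 33.8% CCAAT and 6.04% CACGTG. A match is a run of letters, and binding was not measured.

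The libraries held 20230085 to 33191857 counts each, and all 8 members were counted in every library. Levels are given as CPM, a gene's counts scaled to its library total after TMM adjustment. Xist, the RNA made by the inactive X chromosome of female cells, was at 664 CPM or more, before TMM adjustment, in 5 of 9 vorinostat, 3 of 9 transgenic vehicle and 6 of 10 wildtype vehicle libraries, and at 2.05 CPM or less in the others, so the groups were unbalanced in it. In 4 libraries, vorinostat 6, 7 and 9 and wildtype vehicle 2, mitochondrially encoded genes took 6.39% to 7.48% of counts, against 2.84% to 4.11% in the other 24. Their erythroid markers summed to 77.3 to 135 CPM, against 17.9 to 57.1 CPM in the other 24. Values without these 4 libraries are given beside the results they move. The tissue carried all 5 markers of CA1 pyramidal neurons past the filter, at a summed level of 897 to 1320 CPM in vorinostat, 1010 to 1480 CPM in transgenic vehicle and 1030 to 1430 CPM in wildtype vehicle libraries. In tissue RNA, fewer cells of a type and less RNA per cell cannot be told apart.

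Scaled per kb of annotated exon, Hmgcs1 was the highest of the 8 genes, at 40.9, 37.7 and 39.5 CPM per kb in vorinostat, transgenic vehicle and wildtype vehicle libraries. Srebf2 came next, at 27.0, 30.1 and 29.9 CPM per kb in the same order of groups. Fdft1, at 12.8, 12.2 and 12.7 CPM per kb, Sqle, at 10.8, 10.8 and 11.1 CPM per kb, and Insig1, at 10.7, 10.4 and 10.6 CPM per kb, followed. Hmgcs1, Srebf2 and Fdft1 each lay above the next gene in this order by more than the SD of either in every group, while Sqle and Insig1 did not differ beyond their spread. Sc5d averaged 7.07 ± 0.96, 6.54 ± 0.569 and 6.22 ± 0.468 CPM per kb, within the spread of Dhcr7 at 6.63 ± 0.581, 7.03 ± 0.664 and 7.01 ± 0.722 CPM per kb (SD, n = 9, 9 and 10). Idi1 was far lower, at 0.409, 0.382 and 0.381 CPM per kb, and rested on 20 to 47 counts per library. A like low level was measured for Fdps, named after its values were seen, the neighbouring enzyme of the isoprenoid step, at 0.539, 0.527 and 0.579 CPM per kb. For Idi1, 25.3% of the 50-base windows of its transcripts were shared with transcripts of other genes, and for Fdps 26.2%, so reads of these genes could be mixed with those of others. Fdft1 had 26.5% and Acat2, named after its values were seen, 39.1% of windows shared at levels far above those of Idi1 and Fdps. The part of shared windows in the low counts was not tested.

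**Figure D1:**
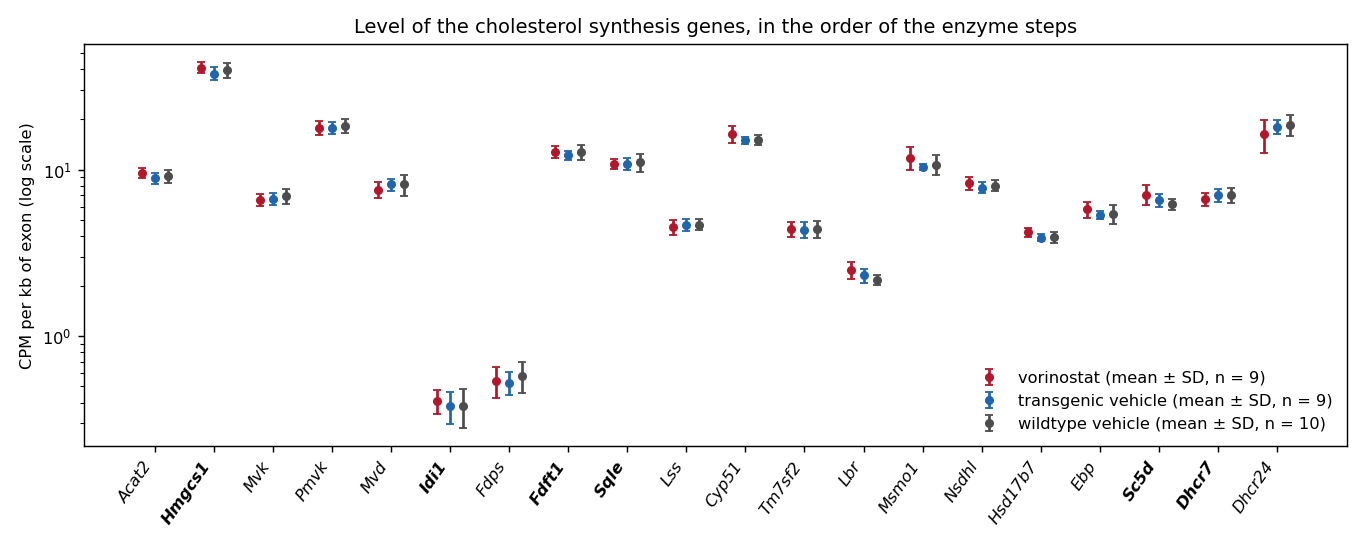
Mean level of 20 genes of cholesterol synthesis in the order of the enzyme steps, in CPM per kb of annotated exon on a log axis. Points are group means, bars are SD over 9 vorinostat, 9 transgenic vehicle and 10 wildtype vehicle libraries, and bold names are members of the set of 8. Hmgcs1 was highest at 40.9 CPM per kb in vorinostat libraries, and Idi1 and Fdps lay below all others.

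Srebf2 (ENSMUSG00000022463; GRCm38 chromosome 15, 82147181 to 82205379, plus strand) encodes SREBP2. It ran from 134 to 235 CPM with a median of 214 in vorinostat libraries, from 205 to 230 with a median of 214 in transgenic vehicle libraries and from 164 to 241 with a median of 218 in wildtype vehicle libraries. The groups overlapped, and their medians were nearly equal. The low end of the vorinostat group was made by 3 libraries, vorinostat 6, 7 and 9, at 141, 134 and 146 CPM, while the other 6 lay between 214 and 235 CPM. Wildtype vehicle 2 was at 164 CPM, against 198 CPM in the next lowest of its group.

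Insig1 (ENSMUSG00000045294; chromosome 5, 28071363 to 28078662, plus strand) encodes an INSIG protein, the sterol-dependent brake on SREBP processing, and is itself a target of SREBP. It ran from 30.0 to 36.9 CPM with a median of 32.9 in vorinostat libraries, from 27.4 to 38.1 with a median of 30.4 in transgenic vehicle libraries and from 25.5 to 38.8 with a median of 32.5 in wildtype vehicle libraries. Every vorinostat library lay inside the range of both other groups.

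Hmgcs1 (ENSMUSG00000093930; chromosome 13, 119690379 to 119708260, plus strand) encodes the cytosolic HMG-CoA synthase, an early enzyme of the pathway. It ran from 173 to 215 CPM with a median of 187 in vorinostat libraries, from 152 to 200 with a median of 168 in transgenic vehicle libraries and from 152 to 210 with a median of 182 in wildtype vehicle libraries. The groups overlapped, with 7 of 9 vorinostat libraries above the transgenic vehicle mean and 2 above its maximum. Of its transcript windows, 11.6% were shared with other genes, mostly with the antisense gene Gm48342, and the library kit did not keep strand.

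Idi1 (ENSMUSG00000058258; chromosome 13, 8885501 to 8892451, plus strand) encodes isopentenyl diphosphate isomerase, which makes the building block of the isoprenoid chain. It ran from 1.01 to 1.84 CPM with a median of 1.41 in vorinostat libraries, from 0.787 to 1.72 with a median of 1.32 in transgenic vehicle libraries and from 0.888 to 2.11 with a median of 1.33 in wildtype vehicle libraries. Its spread was the widest of the 8 outside the vorinostat group, with a coefficient of variation of 16%, 21.7% and 26.4% in the 3 groups, and the ranges overlapped almost fully.

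Fdft1 (ENSMUSG00000021273; chromosome 14, 63145150 to 63179578, minus strand) encodes squalene synthase, the first step committed to sterols. It ran from 47.4 to 59.1 CPM with a median of 53.2 in vorinostat libraries, from 46.0 to 57.4 with a median of 50.6 in transgenic vehicle libraries and from 46.1 to 60.3 with a median of 53.3 in wildtype vehicle libraries. The groups overlapped. Fdft1 shares its 3′ end with Ctsb on the other strand, and 26.5% of its windows occurred in other transcripts, so reads of both genes could be mixed.

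Sqle (ENSMUSG00000022351; chromosome 15, 59315077 to 59331192, plus strand) encodes squalene epoxidase, a slow oxygen-dependent step of the pathway. It ran from 53.2 to 65.8 CPM with a median of 61.1 in vorinostat libraries, from 53.4 to 69.8 with a median of 59.3 in transgenic vehicle libraries and from 52.2 to 72.0 with a median of 60.7 in wildtype vehicle libraries. The groups overlapped, and their medians were nearly equal. With 0.0358% of its windows shared, Sqle was the member least touched by other transcripts.

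Sc5d (ENSMUSG00000032018; chromosome 9, 42251595 to 42264256, minus strand) and Dhcr7 (ENSMUSG00000058454; chromosome 7, 143823145 to 143848410, plus strand) encode a desaturase and a reductase that act one after the other near the end of the pathway. Sc5d ran from 29.8 to 42.9 CPM with a median of 33.6 in vorinostat libraries, from 25.0 to 34.2 with a median of 32.9 in transgenic vehicle libraries and from 26.0 to 33.3 with a median of 30.3 in wildtype vehicle libraries. The groups overlapped, but 5 of 9 vorinostat libraries lay above the wildtype maximum and 4 above the transgenic vehicle maximum. Both counts include vorinostat 6, 7 and 9, of high mitochondrial share, at 34.4, 40.5 and 42.9 CPM. Dhcr7 ran from 33.8 to 43.7 CPM with a median of 38.4 in vorinostat libraries, from 35.4 to 48.2 with a median of 39.7 in transgenic vehicle libraries and from 37.1 to 49.9 with a median of 39.3 in wildtype vehicle libraries. Here 4 of 9 vorinostat libraries lay below the wildtype minimum and 2 below the transgenic vehicle minimum. The 4 include vorinostat 6, 7 and 9, at 35.1, 33.8 and 36.8 CPM, and the 2 are vorinostat 6 and 7.

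**Figure D2:**
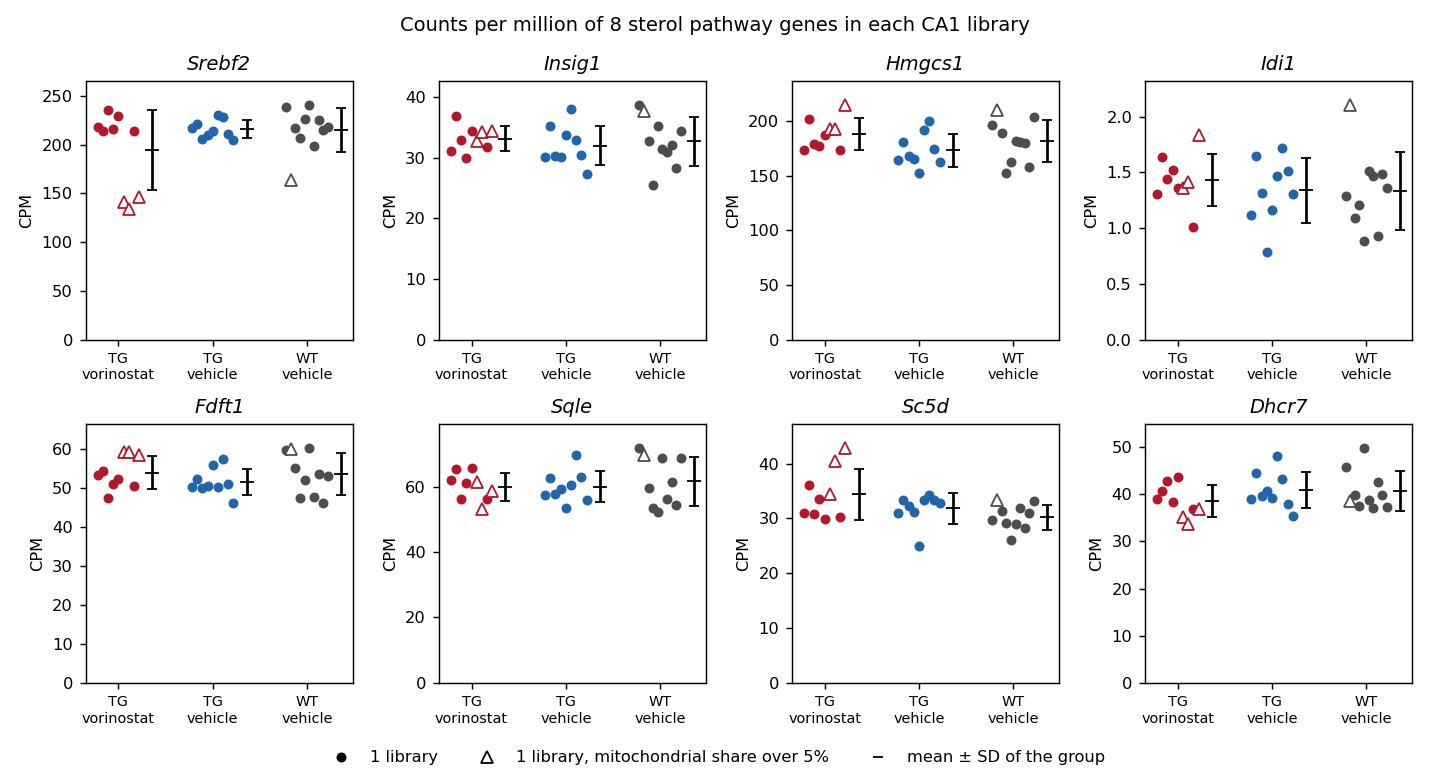
Level of the 8 genes in CPM in each library, with axes starting at 0. Each point is 1 library, open triangles are the 4 libraries of high mitochondrial share, and the bar beside each group is its mean ± SD. For Srebf2 the triangles lie at 134 to 164 CPM, below all other libraries.

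Vorinostat was set against vehicle in transgenic mice to ask whether the drug moved the pathway. None of the 8 genes passed the test. Hmgcs1 was 1.09-fold, Sc5d 1.08-fold and Idi1 1.07-fold of the transgenic vehicle mean, Sqle had a log2 fold change of 0.0019, and Srebf2 was 0.899-fold. In the quasi-likelihood test of edgeR, adjusted over 17009 genes, 0 of 8 members were called, and 0% of all genes were. At an unadjusted p under 0.05 there were 0 members and 2449 genes (14.4%). That count was 664 genes (3.84%) and 0 members without the 4 libraries, and 1296, 1062 and 1248 genes without vorinostat 6, 7 or 9 alone. With the mitochondrial share as a covariate it was 631 genes (3.71%) and 0 members, and with surrogate variables 837 genes (4.92%) and 0 members. Other settings raised that count. There were 3817 genes (22.4%) and 1 member with the Xist class as a covariate, and 3601 genes (21.1%) and 1 member without vorinostat 3. A block by title number gave 2748 genes (16.2%) and 2 members. DESeq2 called 1 gene and voom 0 over all genes, none of them a member. The log2 fold change of Hmgcs1 was 0.12 (SE 0.0627, edgeR p = 0.0693, adjusted p = 0.355), and 0.066 without the 4 libraries. For Srebf2 it was -0.15 (SE 0.0931, edgeR adjusted p = 0.391), and 0.031 (SE 0.0413) without the 4 libraries. For Sc5d it was 0.11 (SE 0.0682, edgeR adjusted p = 0.396), and 0.0018 without the 4 libraries. Fdft1 was at 0.068 and Dhcr7 at -0.084, with edgeR adjusted p = 0.517 and 0.471. In the 24-library fit Fdft1 was at -0.0036, Dhcr7 at -0.026, Idi1 at 0.046, Insig1 at 0.033 and Sqle at 0.025. Single libraries moved some of these values, with Idi1 at 0.022 without transgenic vehicle 4 and 0.049 without vorinostat 9, against 0.10 in the full fit. Sc5d was at 0.065 without vorinostat 9 and 0.071 without transgenic vehicle 5. The log2 fold change was above 0 for 6 of 8 members and for 50.9% of all genes, with medians of 0.059 and 0.0034. Over the 24 libraries 6 of 8 members were above 0, against 48.3% of all genes, and their median was 0.028.

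The transgenic mice on vehicle were set against wildtype littermates on vehicle to ask whether the heart disease model itself altered these genes in CA1. The ratios of the group means lay between 0.953 for Hmgcs1 and 1.05 for Sc5d. With edgeR, 0 of 8 members were called, against 0% of all genes. At an unadjusted p under 0.05 there were 0 members and 227 genes (1.33%), or 0 members and 412 genes (2.38%) without the 4 libraries, and DESeq2 and voom called 0 genes. With surrogate variables as covariates that count was 1 member and 597 genes (3.51%). The smallest edgeR p of a member was 0.27, for Hmgcs1 at a log2 fold change of -0.069 (SE 0.0612, adjusted p = 1). The 95% interval of that difference was -0.189 to 0.0511 on the log2 scale. For Srebf2 the log2 fold change was 0.0069, with an interval of -0.171 to 0.185. The log2 fold change was above 0 for 4 of 8 members, against 50.1% of all genes, and over the 24 libraries for 2 of 8, against 52.7%. In the 24-library fit Hmgcs1 was at -0.042, Sc5d at 0.092, Idi1 at 0.11 and Srebf2 at -0.030.

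Vorinostat-treated transgenic mice were also set against wildtype vehicle mice, to ask how far the treated animals lay from healthy ones. Sc5d, the desaturase, was the member with the largest positive difference, at 34.4 ± 4.67 CPM in vorinostat libraries (SD, n = 9) and 30.3 ± 2.28 CPM in wildtype vehicle libraries (SD, n = 10), but it did not pass the adjusted threshold. Its log2 fold change was 0.18 (SE 0.0666, 95% interval 0.0544 to 0.315, edgeR p = 0.00931, adjusted p = 0.384). Of 9 vorinostat libraries, 8 lay above the mean of wildtype vehicle. Without the 4 libraries it was 0.094 (SE 0.0588, edgeR p = 0.121). In the authors' adjusted expression values tested with limma, Sc5d was called, at a log2 difference of 0.18 and adjusted p = 0.0273. Over all genes, limma called 2502 of 18014 on those values (13.9%), so 1 of 8 members was near the share of all genes. It called 0 of 8 members in the other comparisons, against 0.222% of all genes in vorinostat against transgenic vehicle and 2.2% in transgenic vehicle against wildtype vehicle. With edgeR on the counts, 0 of 8 members were called, against 0% of all genes. At an unadjusted p under 0.05 there were 1 member, Sc5d, and 2141 genes (12.6%), and DESeq2 and voom called 0 genes. Without the 4 libraries there were 0 members and 721 genes (4.17%). The count was 1251, 1066, 1294 and 1278 genes without vorinostat 6, 7 or 9 or wildtype vehicle 5 alone, and 3765 without wildtype vehicle 2. With the mitochondrial share as a covariate it was 1171 genes (6.88%) and 1 member, and with surrogate variables 1067 genes (6.27%) and 0 members. Srebf2 was at -0.15 (SE 0.0909, edgeR adjusted p = 0.443), and at 0.0014 without the 4 libraries. Hmgcs1, at 0.049, Fdft1, at 0.011, and Insig1, at 0.018, were closer to 0 than their errors. In the 24-library fit these 3 were at 0.025, -0.039 and 0.026, Idi1 at 0.16 and Dhcr7 at -0.029. The log2 fold change was above 0 for 5 of 8 members, against 51.7% of all genes, and below 0 for 3, against 48.3%. Of the 8, 6 were above 0 over the 24 libraries, against 49.5%.

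Any pair of these comparisons shares 1 group of libraries, so their fold changes are not independent of each other. Nothing in the labels states that the libraries came from different mice. The p-values therefore measure the spread between these libraries, which may be technical in part. Over the 3 comparisons the interval that reached farthest from 0 was that of Idi1, with its low counts, at -0.172 to 0.403 on the log2 scale for vorinostat against wildtype vehicle.

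**Figure D3:**
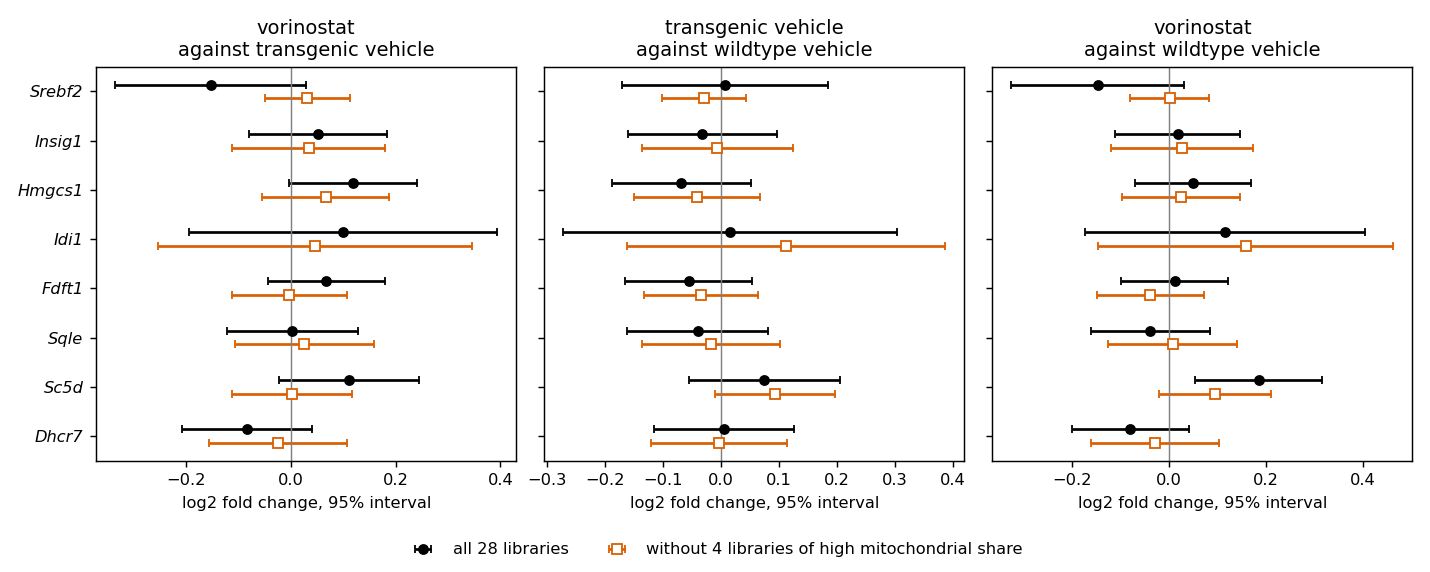
Log2 fold change of the 8 genes in the 3 comparisons, with bars of the 95% interval from the edgeR fit. Filled circles are from all 28 libraries and open squares from 24 libraries without those of high mitochondrial share. The largest shift between the fits is that of Srebf2, at -0.15 with all libraries and 0.031 without the 4 in vorinostat against transgenic vehicle.

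The other genes of the pathway were read from lists of their roles, and 0 genes of any list passed the adjusted threshold with edgeR in any comparison. Of 21 genes of cholesterol synthesis, the 6 enzymes above included, 15 had a log2 fold change above 0 in vorinostat against transgenic vehicle, 5 in transgenic vehicle against wildtype vehicle and 12 in vorinostat against wildtype vehicle. Their medians were 0.068, -0.022 and 0.041. Over the 24 libraries, 15, 8 and 12 of 21 were above 0, with medians of 0.019, -0.011 and 0.019. Lbr, a sterol reductase of the nuclear envelope, averaged 11.8 ± 1.38 CPM in vorinostat and 10.3 ± 0.701 CPM in wildtype vehicle libraries, a log2 fold change of 0.19 (SE 0.065, edgeR p = 0.00614, adjusted p = 0.384). It was 0.098 without the 4 libraries.

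Of 13 tested genes of sterol sensing, 6, 6 and 7 were above 0 in vorinostat against transgenic vehicle, transgenic vehicle against wildtype vehicle and vorinostat against wildtype vehicle, and 7, 6 and 8 over the 24 libraries. Scap, the escort of SREBP, averaged 82.4 ± 17.1 CPM in vorinostat and 95.3 ± 4.37 CPM in transgenic vehicle libraries, a log2 fold change of -0.21 (SE 0.0931, edgeR adjusted p = 0.345), and -0.029 without the 4 libraries. Srebf1, the factor that serves fatty acid synthesis, was at -0.20 (SE 0.0813, edgeR p = 0.0222, adjusted p = 0.345) in the same comparison, and at -0.08 without them. Insig2, the second INSIG, was at 0.09 (SE 0.0461, edgeR adjusted p = 0.35), and at 0.021 without them. Rnf139, a ligase that acts on sterol-regulated proteins, was at 0.17 (SE 0.0669, edgeR p = 0.0147, adjusted p = 0.384) in vorinostat against wildtype vehicle, and at 0.084 without them.

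None of the genes of uptake passed the test. Of 13 genes of lipoprotein uptake and sterol transport, 4, 9 and 4 were above 0 in the same order of comparisons. These counts were 6, 6 and 8 over the 24 libraries. Lipa, the lysosomal lipase that frees cholesterol from lipoproteins, had the smallest p of the lists in transgenic vehicle against wildtype vehicle, at a log2 fold change of 0.085 (SE 0.0392, edgeR p = 0.0385, adjusted p = 1). Scd1 and Scd2, desaturases of fatty acids, followed at 0.10 and 0.074.

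Of 9 genes of the fatty acid arm of SREBP, 0, 9 and 2 were above 0 in vorinostat against transgenic vehicle, transgenic vehicle against wildtype vehicle and vorinostat against wildtype vehicle. The counts were 3, 8 and 7 of 9 over the 24 libraries, so the first and the last depended on the 4 left out. Of 12 tested genes of efflux, storage and turnover, 2, 9 and 4 were above 0, and 3, 9 and 4 over the 24 libraries. Cyp46a1, the neuronal enzyme that turns cholesterol into its exported form, averaged 169 ± 32.1 CPM in vorinostat and 194 ± 9.82 CPM in transgenic vehicle libraries, a log2 fold change of -0.19 (SE 0.0864, edgeR adjusted p = 0.345), and -0.034 without the 4 libraries. Apoe, the main lipid carrier of the brain, was at -0.056 (SE 0.0856, edgeR adjusted p = 0.737), and Abca1, the exporter that loads it, at 0.027 (SE 0.0825, edgeR adjusted p = 0.877). Both were farther from 0 over the 24 libraries, with Apoe at -0.15 (SE 0.086, edgeR p = 0.0848) and Abca1 at 0.15 (SE 0.0684, edgeR p = 0.0424), each at adjusted p = 0.966. Among 8 genes of the isoprenoid branch, Pdss1, an enzyme of coenzyme Q synthesis, was at 0.25 (SE 0.0872, edgeR p = 0.00834, adjusted p = 0.345) and Ggps1, which makes geranylgeranyl diphosphate, at 0.19 (SE 0.0792, edgeR p = 0.0248, adjusted p = 0.345). They were at 0.049 and 0.044 over the 24 libraries. Pdss1 was at 0.24 (SE 0.0851, edgeR adjusted p = 0.384) in vorinostat against wildtype vehicle, and at 0.076 over the 24 libraries.

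In the 4 libraries of high mitochondrial share, several genes of the pathway lay apart from the other libraries. Srebf2 lay at 134 to 164 CPM in them, with a median of 143, and at 198 to 241 CPM in the other 24, with a median of 217, with no overlap. Of all genes tested, 11.2% had all 4 libraries below the other 24 and 9.99% had all 4 above. Scap lay at 57.2 to 69.0 CPM in these libraries and at 88.3 to 106 CPM in the others. Lrp1, Msmo1 and Cyp51 are named here after their values were seen. Lrp1, a large lipoprotein receptor, lay at 292 to 387 CPM, against 677 to 838 CPM. By contrast the enzymes Msmo1, at 78.5 to 93.1 CPM against 54.6 to 74.1 CPM, and Cyp51, at 75.3 to 86.4 CPM against 59.5 to 71.1 CPM, both of which demethylate sterol intermediates, lay above. Hmgcs1 lay at 193 to 215 CPM, against 152 to 204 CPM, and Sc5d at 33.3 to 42.9 CPM, against 25.0 to 36.1 CPM, both with overlap. Sqle showed no such shift, at 53.2 to 69.8 CPM against 52.2 to 72.0 CPM. These libraries were set apart by their RNA and are no group of the study, so no test was made. The part of their mitochondrial and erythroid RNA in the values of the members was not tested.

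**Figure D4:**
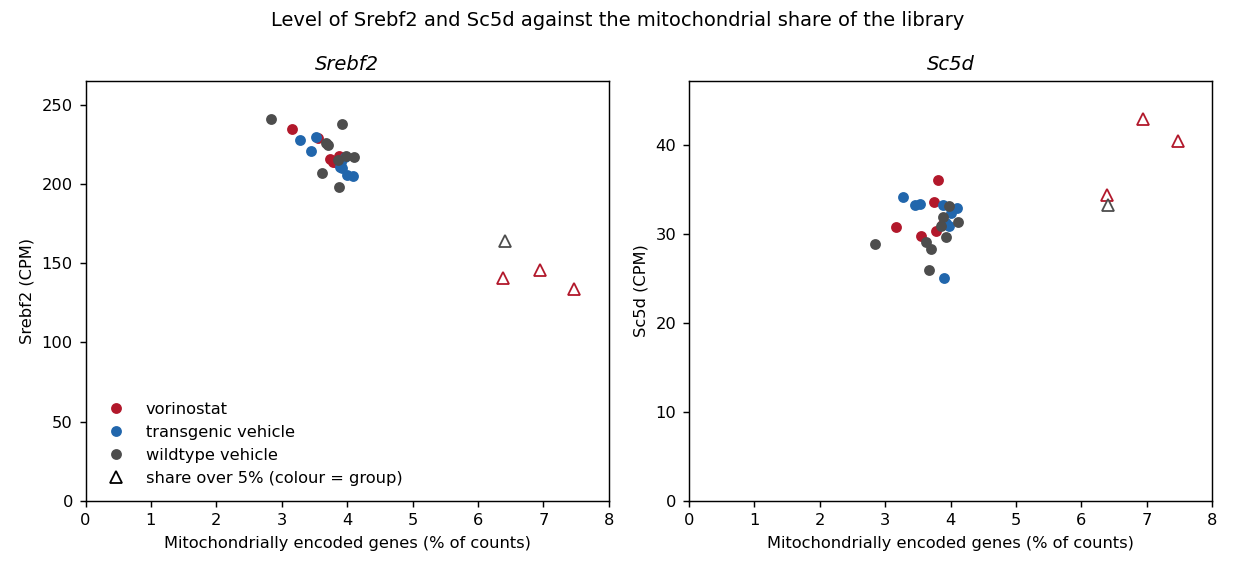
Level of Srebf2 and Sc5d in CPM against the percentage of counts from mitochondrially encoded genes, 1 point per library, coloured by group. The 4 open triangles at 6.39% to 7.48% lie apart from the 24 circles at 2.84% to 4.11%, at low Srebf2 and at high or middle Sc5d.

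Within groups, part of the 8 genes varied together from library to library. Pearson's r was computed on log2 CPM after the group means were removed, over the 24 libraries without those of high mitochondrial share, since these 4 form a separate cluster. The p-values come from permutation within groups and were adjusted over 28 pairs. Both Xist classes occurred in every group and were not adjusted for, and their part in these and the later correlations was not tested. Of the 28 pairs, 24 had r above 0, the median r was 0.45, and 10 passed an adjusted p of 0.05. Over all 28 libraries 11 pairs passed, and 8 passed in both.

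The closest pair was Hmgcs1 and Sqle, the early synthase and the epoxidase, with r = 0.828 (Spearman's rho = 0.807, adjusted permutation p = 0.00084), and r = 0.782 without the 2 libraries farthest from the median. Insig1 and Dhcr7 gave r = 0.715 (rho = 0.639, adjusted permutation p = 0.00364), and Sqle and Fdft1, enzymes of adjacent steps, gave r = 0.708 (rho = 0.669, adjusted permutation p = 0.00532). Hmgcs1 and Insig1 gave r = 0.669 (rho = 0.661, adjusted permutation p = 0.00532), and Hmgcs1 and Sc5d gave r = 0.619 (rho = 0.578, adjusted permutation p = 0.00742). Without the 2 farthest libraries these 4 values were 0.691, 0.595, 0.625 and 0.626. Among 17008 other genes, Sqle ranked 8 in likeness to Hmgcs1 over the 24 libraries and 117 over all 28. The other pairs ranked lower over the 24 libraries, with Dhcr7 at rank 38 for Insig1, Insig1 at 327 for Hmgcs1 and Fdft1 at 369 for Sqle, and Sc5d at 3.34% of the ranking for Hmgcs1, so many genes outside the set were closer. Sc5d stood outside part of this pattern, with r = -0.126 to Fdft1, -0.182 to Dhcr7 and -0.19 to Srebf2, none of which passed.

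Srebf2 correlated with part of the members. Over the 24 libraries it gave r = 0.669 with Dhcr7 (rho = 0.656, adjusted permutation p = 0.00532), 0.595 with Fdft1 and 0.586 with Insig1 (adjusted permutation p = 0.0217 each), and 0.414 with Hmgcs1 (adjusted permutation p = 0.117). Without the 2 farthest libraries the first 3 were 0.681, 0.415 and 0.454. Among 17008 other genes, Dhcr7 ranked 607, Fdft1 1061, Insig1 1129 and Hmgcs1 2620 in likeness to Srebf2 over the 24 libraries. Many genes outside the set were thus closer to Srebf2. No pooled r over 28 libraries is given for Srebf2 with the other members, because the 4 libraries form a separate cluster in it. Of the 21 pairs without Srebf2, 9 passed over 28 libraries and 7 over the 24.

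**Figure D5:**
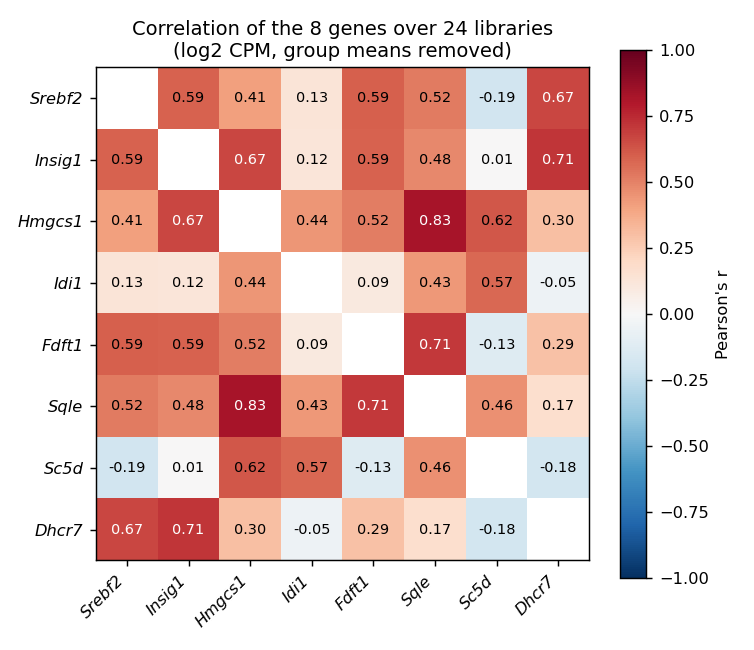
Pearson's r between the 8 genes over 24 libraries, on log2 CPM with group means removed, from -1 in blue to 1 in red. The darkest cell is Hmgcs1 with Sqle at 0.828, and Sc5d is near or below 0 with Srebf2, Fdft1, Insig1 and Dhcr7.

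The gene most like the mean of the 8 members, of 17009 tested, was Stard4, which encodes a carrier that moves cholesterol between membranes and is a target of SREBP2. Its r was 0.91 over 28 libraries and 0.916 over the 24, rank 1 in each. Stard4 itself averaged 4.29, 3.98 and 4.09 CPM per kb in vorinostat, transgenic vehicle and wildtype vehicle libraries and was not called in any comparison. The next were the members Hmgcs1 and Sqle, at 0.885 and 0.824, which are part of the mean, and then Cldn1, Pbx3 and Arpp21, at 0.818, 0.808 and 0.807. These 6 genes (0.0353%) reached 0.8 over 28 libraries, and 39 genes (0.229%) did over the 24. The member Srebf2 was at 0.0601 over 28 libraries and at 0.695 over the 24. Of the 15 other synthesis genes, 14 had r above 0 with a median of 0.439, against 50.7% of all genes with a median of 0.0052. Over the 24 libraries 13 of 15 were above 0, with a median of 0.484, against 49.1% of all genes. Of the 11 other genes of sterol sensing, 2 were above 0, with a median of -0.143. Of the 13 genes of uptake and sterol transport, Stard4 included, 4 were above 0, with a median of -0.0859. Over the 24 libraries 4 of these 13 were above 0, with a median of -0.0876. The efflux, isoprenoid and fatty acid lists had 41.7%, 50% and 44.4% above 0 over 28 libraries, and 50%, 50% and 44.4% over the 24. All these values come from the same 28 libraries and are a description, with no p-value.

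Markers of cell types moved with some members. For the correlations, each marker list was taken as the mean log2 CPM of its genes. Over the 24 libraries, 3 of 88 relations between a member and a marker list or the mitochondrial share passed an adjusted permutation p of 0.05, against 13 over all 28. Sqle was lower where microglia markers were higher, with r = -0.814 (rho = -0.79, adjusted permutation p = 0.00352). This r was -0.809 without the 2 farthest libraries and -0.606 over 28 libraries. No other member passed with microglia markers over the 24 libraries. Hmgcs1 was at -0.62, Fdft1 at -0.56, Srebf2 at -0.481 and Insig1 at -0.364. Sc5d, Dhcr7 and Idi1 were at -0.306, -0.203 and -0.0958. Dentate granule neuron markers gave r from -0.192 for Idi1 to -0.619 for Srebf2 (adjusted permutation p = 0.0519), and none passed. Dhcr7 was higher where oligodendrocyte markers were higher, with r = 0.645 (rho = 0.669, adjusted permutation p = 0.0414), and 0.584 without the 2 farthest libraries. Over all 28 libraries that r was 0.323 (adjusted permutation p = 0.239) and did not pass. With oligodendrocyte precursor markers Dhcr7 was at r = 0.621 over the 24 libraries (adjusted permutation p = 0.0517). Over all 28 libraries it was at 0.674 with the precursor markers (adjusted permutation p = 0.00205) and passed. Srebf2 was lower where the mitochondrial share was higher, with r = -0.655 (rho = -0.521, adjusted permutation p = 0.0414), and -0.494 without the 2 farthest libraries. For CA1 pyramidal neuron markers no member passed over the 24 libraries. Insig1 was at r = -0.608 (adjusted permutation p = 0.0519). Dhcr7, Srebf2, Fdft1 and Sqle were at -0.583, -0.57, -0.566 and -0.55 (adjusted permutation p = 0.0549 each). Hmgcs1 was at -0.441, Idi1 at -0.0879 and Sc5d at 0.041. Over all 28 libraries Fdft1, Hmgcs1 and Insig1 passed, at -0.654, -0.513 and -0.513, while Srebf2 was at 0.374. All 6 microglia markers passed the filter and summed to 270 to 385, 283 to 346 and 259 to 352 CPM in vorinostat, transgenic vehicle and wildtype vehicle libraries. All 8 oligodendrocyte markers did, and summed to 4100 to 7350, 3770 to 7600 and 3360 to 5940 CPM. Of 5 erythroid markers 4 were tested, with sums of 36.7 to 135, 17.9 to 46.1 and 21.1 to 106 CPM. The part of these cells in the values of the members was not tested.

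In the authors' deposited table of coexpression modules, the 8 members fell into 6 of 14 modules. Sqle and Insig1 shared the blue module, with membership scores of 0.769 and 0.745, and the same module held Stard4 at 0.847. Fdft1 and Idi1 shared the black module, at 0.814 and 0.389, and Idi1 scored higher, at 0.439, for lightcyan. Of all genes in that table, the blue module held 8.92% and the black module 10.7%. Hmgcs1 was in lightcyan at 0.83, Sc5d in purple at 0.869, Dhcr7 in cyan at 0.854 and Srebf2 in green at 0.926, all as scores of the authors' deposited table. The way the modules were built is unknown here.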

How the data were processed

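CA1 RNA of 28 libraries was measured with TruSeq RNA v2 libraries read as 50-base single ends, per the labels' protocols. Deposited by the authors were raw counts, whole numbers for each gene. The submitters' processing notes name mm10, STAR 2.5.2b, Subread 1.5.1 with featureCounts, and FastQC 0.11.5, and no source used here states the annotation or the strand setting. A further deposited table holds adjusted log2 expression, by its name the output of a mixed linear model, with the log base read as 2. Another deposited table holds module membership scores, each with a p-value.

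Groups came from the sample titles. All 48709 genes entered the totals, 48349 (99.3%) were matched to a symbol, and coordinates are from GENCODE on GRCm38. The 117 within-group pairs of libraries differed by a chi-square per degree of freedom of 3.18 to 79.4, so none was merged. Differences came from 1 robust quasi-likelihood fit of edgeR 4.0.16 (R 4.3.3) over 28 libraries, scaled by TMM, with 3 contrasts. The low-count filter (minimum count 10, minimum total 15) left 17009 genes, over which p-values were adjusted by the Benjamini-Hochberg method, with a threshold of 0.05. Standard errors follow from the fold change and the F statistic, and intervals are normal approximations that cover the spread between libraries. The fitting steps were tested on simulated data.

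Correlations used log2 CPM with a prior count of 2 and group means removed, with 100000 two-sided permutations within groups (10000 without the 2 farthest libraries). The smallest permutation p possible is 1e-05. Shared windows are 50-base words found in transcripts of other genes on either strand. The members were given by name, and the members and lists were chosen with earlier results of these data known. Named beside the members were the 3 pathway genes of smallest p in each contrast, genes chosen for their role (Insig2, Srebf1, Scap, Cyp46a1, Apoe, Abca1) and the 6 genes most like the mean of the members. A few genes of the lists count in their totals but are not reported here by name. Alternatives were RLE scaling, no filter, DESeq2 1.42.0, voom of limma 3.58.1, 2 groups only, leaving out the 4 libraries with over 5% mitochondrial counts, 5 surrogate variables of sva 3.50.0, covariates for Xist class, mitochondrial share and oligodendrocyte markers, blocks by replicate number, limma on the authors' adjusted values, and leaving out each library.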

Additional observations from a re-analysis of the deposited data

Results flagged for a closer look

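In wildtype vehicle libraries, Idi1 stood at 2.11 CPM in library 2, far above the next highest at 1.51 CPM, a gap of 0.491 of the range of the group. The same library is one of the 4 with a high mitochondrial share. In transgenic vehicle libraries, Sc5d stood at 25.0 CPM in library 5, far below the next lowest at 30.9 CPM, a gap of 0.641 of the range. The 8 members in 3 groups made 24 sets, and chance flags about 1 in 20 groups.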

How the results depend on the processing

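No member was called in any comparison under the count-based alternatives, where the smallest edgeR, DESeq2 or voom adjusted p of a member was 0.151. Of 312 member fold changes under alternatives other than leaving out a library, 274 kept their direction and their side of the threshold, 1 was newly called and 37 turned in sign, none of these larger than 0.14, and the cause was not tested. Over all genes, DESeq2 called 1 in vorinostat against transgenic vehicle. On the authors' adjusted values limma called 40, 396 and 2502 genes in vorinostat against transgenic vehicle, transgenic vehicle against wildtype vehicle and vorinostat against wildtype vehicle. These were 0.222%, 2.2% and 13.9% of 18014 genes. Of 67 other pathway genes it called 2 (2.99%) in the second and 11 (16.4%) in the last, and of members 1 in the last, Sc5d. The part of the authors' adjustment in these counts was not tested. Depth limits Idi1 most, at 20 to 47 counts.

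In vorinostat against transgenic vehicle, the log2 fold changes that turned in sign were as follows. Surrogate variables gave -0.0070 for Hmgcs1, -0.060 for Sqle, -0.14 for Idi1, 0.019 for Dhcr7, -0.067 for Sc5d and 0.00602 for Srebf2. Sqle, at 0.0019 in the reported fit, was at -0.0014 with RLE, -0.000926 with no filter, -0.0014 with DESeq2, -0.019 with the Xist class, -0.0026 with oligodendrocyte markers and -0.039 in the authors' adjusted values, where Insig1 was at -0.00940. Without the 4 libraries Fdft1 was at -0.0036 and Srebf2 at 0.031. In transgenic vehicle against wildtype vehicle, the authors' adjusted values gave 0.057 for Hmgcs1, 0.089 for Sqle, 0.093 for Insig1 and 0.10 for Fdft1. Surrogate variables gave 0.011 for Sqle, -0.018 for Dhcr7 and -0.016 for Srebf2. Dhcr7 was at -0.0037 without the 4 libraries, -0.010 with the mitochondrial share, -0.016 with oligodendrocyte markers and -0.0051 with the block by title number. Srebf2 was at -0.030 without the 4 libraries and -0.029 with the mitochondrial share. In vorinostat against wildtype vehicle, surrogate variables gave -0.018 for Hmgcs1, -0.011 for Idi1, -0.0044 for Fdft1 and 0.000917 for Dhcr7. Without the 4 libraries Sqle was at 0.0076, Fdft1 at -0.039 and Srebf2 at 0.0014. Sqle was at 0.050 in the authors' adjusted values, and Fdft1 at -0.028 with the mitochondrial share.

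Leaving out each library gave 0 to 1 genes called in vorinostat against transgenic vehicle, with 1 without vorinostat 3. It gave 0 to 3 in vorinostat against wildtype vehicle, with 3 without wildtype vehicle 2 and 1 without wildtype vehicle 5. No member was called without any 1 library. In vorinostat against transgenic vehicle leaving out 1 library moved Idi1 between 0.022 and 0.15, Sc5d between 0.065 and 0.13, Insig1 between 0.022 and 0.083 and Srebf2 between -0.19 and -0.10. Ranges that crossed 0 were -0.019 to 0.026 for Sqle in vorinostat against transgenic vehicle. In transgenic vehicle against wildtype vehicle they were -0.045 to 0.11 for Idi1, -0.029 to 0.042 for Dhcr7 and -0.031 to 0.027 for Srebf2. In vorinostat against wildtype vehicle they were -0.016 to 0.048 for Insig1 and -0.011 to 0.032 for Fdft1.

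Over 24 libraries the correlations that turned in sign were 0.414 for Hmgcs1 and Srebf2, 0.586 for Insig1 and Srebf2, 0.132 for Idi1 and Srebf2, 0.29 for Fdft1 and Dhcr7, -0.126 for Fdft1 and Sc5d and 0.595 for Fdft1 and Srebf2. Fdft1 and Dhcr7 stood at 0.0067 without the 2 farthest libraries. Of 88 relations to markers and mitochondrial share, 13 passed over 28 libraries, 3 without the 4 libraries and 7 without the 2 farthest.

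Libraries that shared a replicate number across groups were only weakly alike. Libraries with the same title number deviated together with r from -0.339 to 0.408 (median 0.0598, 7 of 27 pairs over 0.1), and with the same library code number with r from -0.213 to 0.232 (median 0.0459, 7 of 26). Pairs of different numbers across groups had a median of -0.0137 by title number and -0.0102 by library code number. The difference between these medians was not tested. With a replicate block by title number 0 members were called in each comparison, and 1 gene was called in vorinostat against wildtype vehicle. With a block by library code number 0 genes were called.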
